A study of Mus musculus with 24 samples.

Results

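Trace amine-associated receptors (TAARs) are G protein-coupled receptors of the nose that form a family apart from the odorant receptors. Most of them, though not Taar1, are used by olfactory sensory neurons, each such neuron choosing 1 receptor gene, and in the mouse many of these neurons lie in the dorsal zone of the olfactory epithelium. They respond to volatile amines: mouse Taar4 is activated by phenylethylamine and mouse Taar5 by trimethylamine. Like odorant receptors, they signal through the G protein subunit Gnal to the adenylyl cyclase Adcy3 and a cyclic nucleotide-gated channel.

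The 5 genes described here are Taar2, Taar4, Taar5, Taar6 and Taar9, taken as every probe annotated to them. They have 9 probes of 45281 on the array, which names 19057 genes. The array holds 15 TAAR genes in all, with 22 probes, and 1071 named odorant receptor genes. A probe counted as detected on an array when its detection p-value, its rank against negative control beads, was under 0.01.

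Illumina bead arrays measured RNA of 7 groups of live cells from the olfactory mucosa of mice 8 to 12 weeks old, with 3 arrays per group. Each mucosal replicate pooled 2 to 7 mice. Sus cells were the bright GFP cells without CD54 of mice heterozygous for ∆Sox2-GFP on an FVB/NJ cross. OMP-OBX and OMP cells were GFP cells of mice heterozygous for ∆OMP-GFP on a CD-1 cross. Neurog1-OBX and Neurog1-Ctrl cells were GFP cells of mice heterozygous for Neurog1-GFP on an FVB/NJ cross. In both OBX groups the mucosa lay on the side of an olfactory bulb that had been removed 3 weeks earlier. Sox2GBC cells were the dim GFP cells of the Sox2 line, without E-cadherin or CD54. OM was the whole mucosa, sorted for live cells alone, of F1 mice of the strains 129S1/SvImJ and C57BL/6J without a transgene. A commercial reference RNA of 11 cell lines, mREF, was run on 3 further arrays as repeats of 1 RNA. Mouse cross and sorted cell type cannot be told apart in comparisons across lines, whereas each OBX group shares its cross with its control.

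All 11 markers of mature olfactory neurons were detected on every array of all 7 mucosal groups, Sus included. Their summed intensity, in normalized units, was 27350 to 30920 in Sus, 167300 to 179700 in OMP-OBX, 219800 to 227900 in OMP, 108300 to 122400 in Neurog1-OBX, 117200 to 132200 in Neurog1-Ctrl, 80150 to 104700 in Sox2GBC and 142900 to 184800 in OM. The spread of the negative controls, which sets what can be detected, differed between arrays. Its SD was 10.02 to 10.95 intensity units on the OMP-OBX arrays, 4.79, 16.6 and 11.2 on the OMP arrays and 17.3 to 20.8 on the Neurog1-Ctrl arrays. The arrays were put into 4 noise classes by this SD, and the OMP-OBX arrays shared a class with OMP replicate 3. OM replicate 1 (4.87) and OMP replicate 1 were among the least noisy arrays, and OM replicates 2 and 3 (16.9 and 18.1) among the noisiest.

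In the RefSeq annotation of GRCm38.p6, the 15 TAAR genes form 1 cluster on chromosome 10 between positions 23920406 and 24109534. Taar2 runs from 23938572 to 23941583, Taar4 from 23960494 to 23961537, Taar5 from 23970706 to 23971719, Taar6 from 23984609 to 23985646 and Taar9 from 24108488 to 24109534. For the members with a sequence window, the first 30 genomic bases from the start codon are shown, to identify the genes, with the start codon in capitals. Whether all of these bases are coding was not checked. They are not the probe sequences, which were not used here, so the specificity of the probes within the cluster, the members' included, was not tested. No window for Taar4 was used here.
Taar2, chr10:23938572-23938601, plus strand: ATGgcatcttttgaagcccagcaggtacat
Taar5, chr10:23970706-23970735, plus strand: ATGagagctgtcctcctcccgggctctgga
Taar6, chr10:23985617-23985646, minus strand: ATGggcagtaactcgtctccgcccaccgtc
Taar9, chr10:24109505-24109534, minus strand: ATGacaagcgacttctccccagaaccgccc

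Over the first 50 genomic bases from the start codon, Taar6 and Taar9, the closest pair of members with a sequence, differed at 18 positions. The Taar7 genes are close copies of each other, and the Taar7 values below are uncertain as to the gene. The 250 bases before the annotated gene start, which was the start codon in all 11 TAAR genes with a window, were searched for the homeodomain core TAATTA. This core, which reads the same on both strands, was found in 0 of the 4 members with a window and in 1 of the 11 TAAR genes (Taar8b). The same letters were in 18.1% of the 944 odorant receptor windows and in 4.84% of the 32851 windows of all genes. Whether those windows also end at a start codon was not checked, so the shares may concern unlike regions.

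Of the 5 members, 4 were detected on all 3 arrays of OMP and on all 3 of OM by at least 1 probe, and none was detected on all 3 arrays of any other group. Taar9 was the exception. By comparison, 12 of the 1071 odorant receptors (1.12%) were detected on all 3 Sus arrays, 260 (24.3%) on all 3 OMP-OBX arrays and 470 (43.9%) on all 3 OMP arrays. The numbers were 179 (16.7%) in Neurog1-OBX, 305 (28.5%) in Neurog1-Ctrl, 106 (9.90%) in Sox2GBC and 320 (29.9%) in OM. No member probe was detected on any mREF array. Outside OMP and OM, a member was detected 3 times in all: Taar2 on 1 Neurog1-Ctrl array, and Taar6 on 1 Neurog1-Ctrl and 1 OMP-OBX array.

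**Figure D1:**
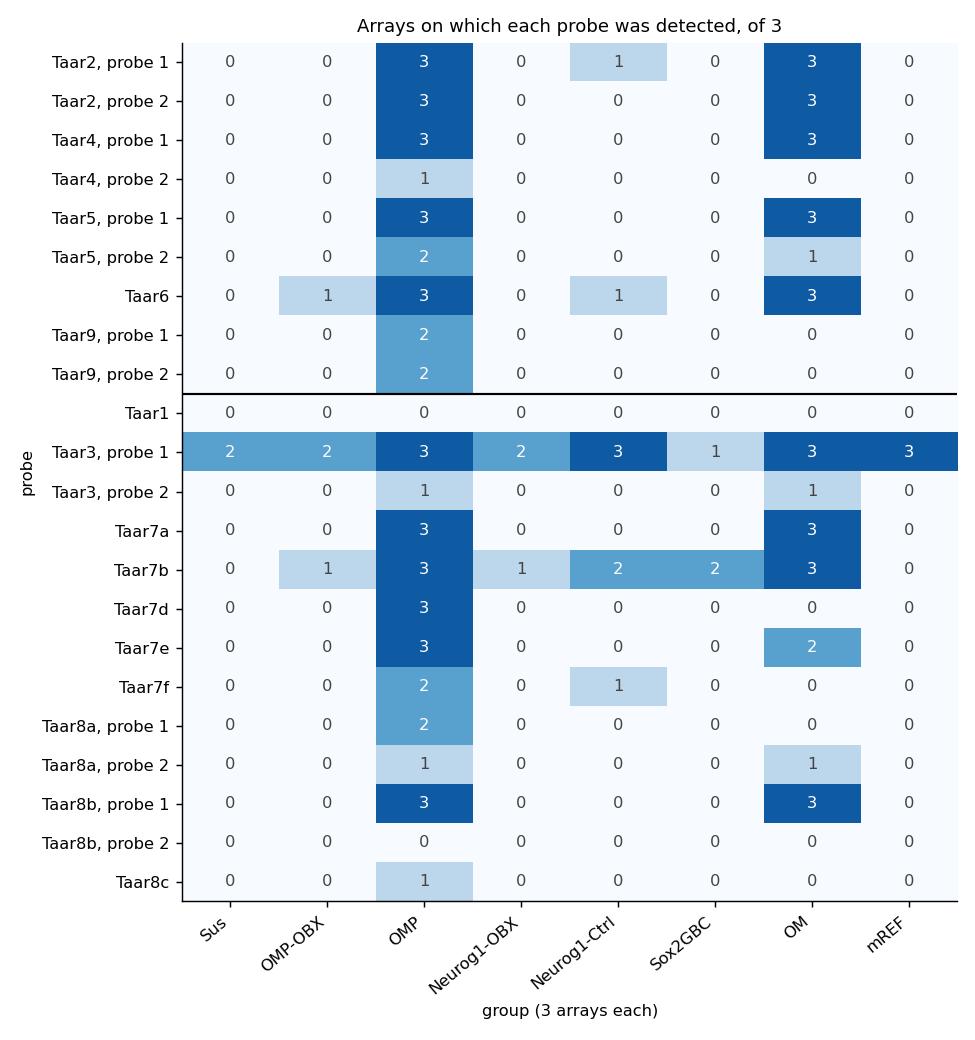
Number of arrays, of 3 per group, on which each of the 22 TAAR probes had a detection p under 0.01; columns are groups, rows are probes, and the line separates the 9 probes of the members from the 13 others. The dark cells of the members stand in OMP and OM, and Taar3 probe 1 is the row detected on all 3 mREF arrays.

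Taar2 showed the widest range of the members. Its brighter probe read 5.08, 4.98 and 4.68 log2 intensity units in Sus, 5.24, 5.12 and 4.94 in OMP-OBX, and 6.21, 7.07 and 8.45 in OMP. It read 4.59, 5.01 and 5.38 in Neurog1-OBX, 5.77, 6.15 and 5.75 in Neurog1-Ctrl, 5.06, 5.10 and 5.43 in Sox2GBC, and 5.46, 7.73 and 7.75 in OM. The 3 OMP arrays lay above every array of the other sorts, while OM replicate 1 lay below the 3 Neurog1-Ctrl arrays. In the deposited units, Taar2 read 54.5 on OMP replicate 1, where it was detected, and 54.7 on Neurog1-Ctrl replicate 1, where it was not. A like intensity was thus called on a quiet array and missed on a noisy one. At a detection p under 0.05, Taar2 was detected on 3 of 3 Neurog1-Ctrl arrays. The second Taar2 probe was detected on the same 6 arrays of OMP and OM and on no other.

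Taar4, the phenylethylamine receptor, was detected on 6 of 21 arrays by its brighter probe. Its values were 5.11, 4.68 and 4.99 in Sus, 4.78, 5.74 and 5.33 in OMP-OBX, and 5.66, 6.44 and 6.87 in OMP. They were 5.38, 5.16 and 5.35 in Neurog1-OBX, 5.77, 5.24 and 5.48 in Neurog1-Ctrl, 5.83, 5.22 and 4.73 in Sox2GBC, and 5.35, 6.48 and 6.54 in OM. The lowest OMP array overlapped the highest arrays of OMP-OBX, Neurog1-Ctrl and Sox2GBC. A second Taar4 probe was detected on 1 array, in OMP. At a detection p under 0.05 the brighter probe was detected on 11 of 21 arrays.

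Taar5, the trimethylamine receptor, read 4.92, 4.71 and 4.89 in Sus, 5.38, 5.01 and 5.31 in OMP-OBX, and 6.43, 6.27 and 6.48 in OMP, the tightest OMP values of the 5 members. It read 5.32, 5.22 and 4.96 in Neurog1-OBX, 5.13, 5.11 and 5.73 in Neurog1-Ctrl, 5.39, 5.25 and 5.11 in Sox2GBC, and 5.36, 6.16 and 6.18 in OM. Every OMP array lay above every array of the other groups, OM included. A second Taar5 probe was detected on 2 of 3 OMP arrays and on 1 of 3 OM arrays.

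Taar6, which has 1 probe, read 5.04, 4.67 and 4.67 in Sus, 4.75, 4.53 and 5.74 in OMP-OBX, and 6.85, 6.95 and 7.26 in OMP. It read 4.67, 4.93 and 4.67 in Neurog1-OBX, 6.09, 5.23 and 5.38 in Neurog1-Ctrl, 5.27, 5.27 and 4.88 in Sox2GBC, and 5.86, 6.42 and 6.58 in OM. OMP again stood above all other groups on every array, and the highest OMP-OBX array was the 1 that detected it.

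Taar9 did not reach the minimum of 3 arrays for the test with either of its probes, each of which was detected on 2 of 3 OMP arrays and on no other array. Its brighter probe read 4.73, 4.65 and 4.52 in Sus, 4.74, 4.64 and 4.52 in OMP-OBX, and 5.48, 5.09 and 5.86 in OMP. It read 4.67, 4.66 and 5.40 in Neurog1-OBX, 4.65, 4.69 and 4.58 in Neurog1-Ctrl, 4.67, 5.11 and 4.53 in Sox2GBC, and 5.08, 5.53 and 5.02 in OM. OMP replicate 2, one of the noisier arrays, was the OMP array on which it was not detected. In the fit without the filter, over 19057 genes, Taar9 was lower in OMP-OBX than in OMP by limma (-0.84 ± 0.22 SE, adjusted p = 0.0274) and higher in OMP than in Neurog1-Ctrl (0.84 ± 0.22, adjusted p = 0.00851), both against groups that did not detect it, so these sizes are not measured folds.

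**Figure D2:**
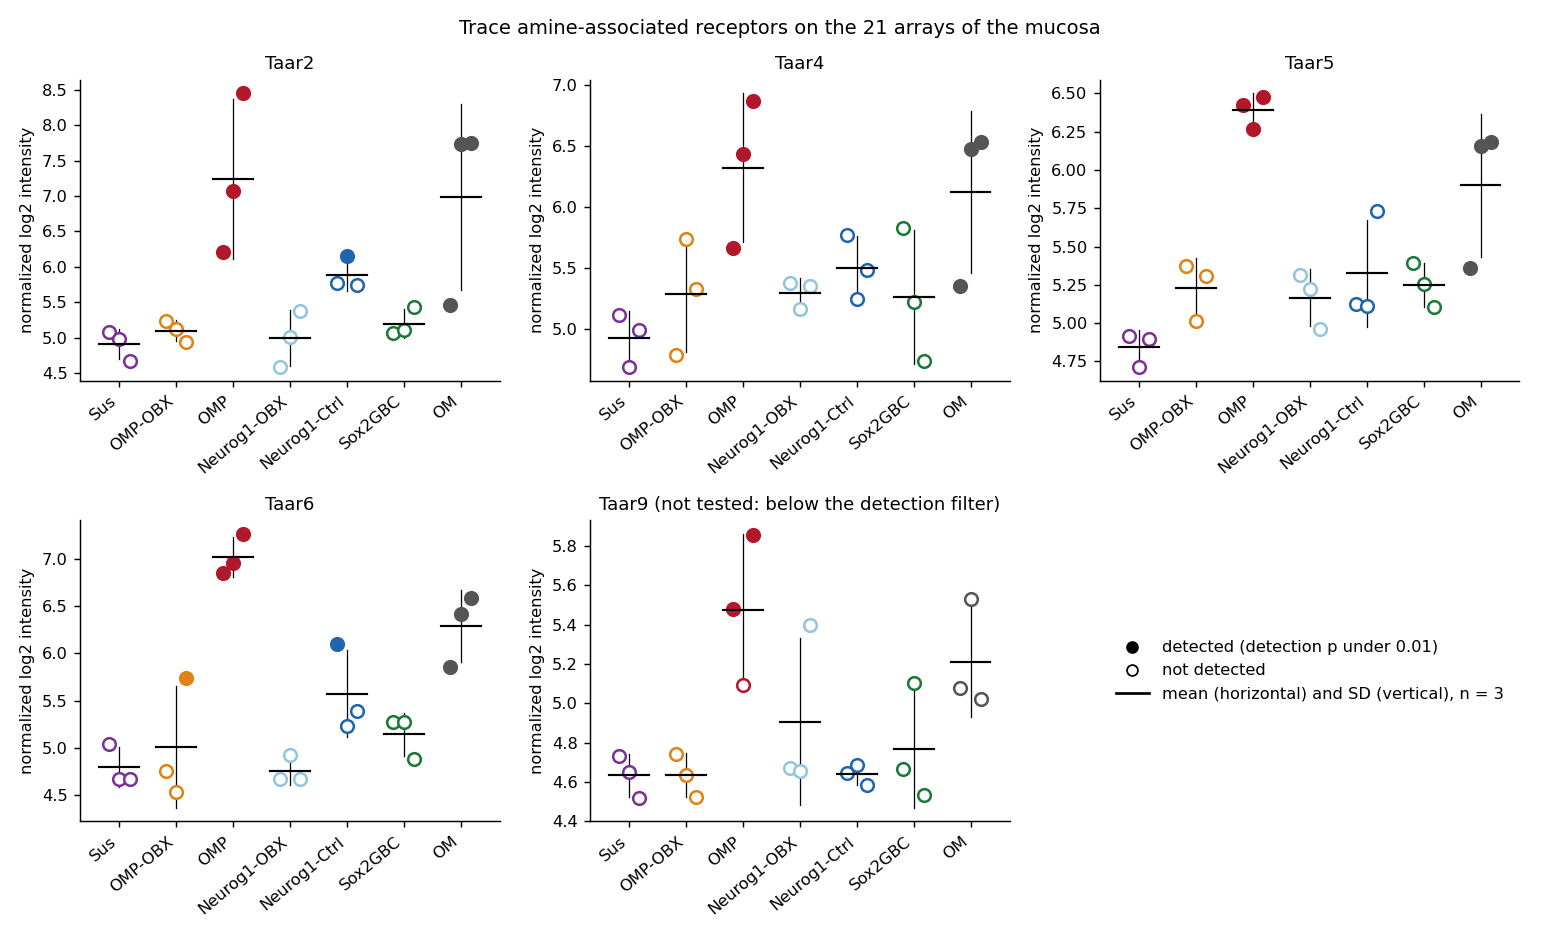
Normalized log2 intensity of the brighter probe of each member on the 21 mucosal arrays, 1 panel per gene with its own axis; each point is an array, filled where detected (p under 0.01), with the group mean and SD. Filled points gather in OMP and OM, and OM replicate 1, the leftmost OM point, lies below replicates 2 and 3 for Taar2, Taar4, Taar5 and Taar6.

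Groups were compared by log2 intensity with limma, on all 21 mucosal arrays, and p-values were adjusted (Benjamini-Hochberg) over the 11870 genes tested, with genes under 0.05 called. The 4 members that entered the test did so through detection in OMP and OM. Their being high there is thus partly a condition of entry, and their counts are given as description. Counts at an unadjusted p under 0.05 have no share of all genes beside them here, so they are not set against a background. Differences are log2 with their standard error, and 3 arrays per group limit their precision. Where no array of the lower group detected a gene, its difference is against readings not well above background. There "at least" marks a fold bound between group means. For it, each lower-group reading was raised to no less than the lowest detected signal of its array. The bound carries no sampling error and is not a confidence limit, so the true fold may be smaller. It is given only where it exceeds 1. The sizes depend on the background correction: the 22 called member differences were 0.554 to 0.696 of those printed without it, and 0.413 to 0.573 with the authors' processed values. In these sorted pools, fewer cells of a type and less RNA per cell cannot be told apart.

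The first question was how the receptors differed along the neuronal lineage, from Sox2GBC over Neurog1-Ctrl to OMP. All 4 members rose in OMP against Sox2GBC, where 22.7% of genes were higher. Taar2 averaged 7.24 ± 1.13 SD in OMP and 5.20 ± 0.20 in Sox2GBC, a difference of 2.04 ± 0.50 (adjusted p = 0.00238 by limma, at least 2.37-fold). Taar6 averaged 7.02 ± 0.21 in OMP and 5.14 ± 0.23 in Sox2GBC (1.88 ± 0.28, adjusted p = 2.71e-05, at least 2.03-fold). The rise of Taar5 was at least 1.31-fold (1.14 ± 0.22, adjusted p = 0.000276) and that of Taar4 at least 1.25-fold (1.06 ± 0.34, adjusted p = 0.0164). The Taar4 call ended without OMP replicate 3 (0.79, adjusted p = 0.0946), without Sox2GBC replicate 3 (0.80, adjusted p = 0.0919) and with the compared groups only (adjusted p = 0.0511). Of the other TAAR genes 5 of 7 tested rose, and of the 15 odorant transduction genes 14 rose. Among the 580 odorant receptors tested 472 rose and 13 fell, with a median difference of 1.50 against -0.06 over all genes. All 8 immature neuron markers and all 6 precursor markers fell in OMP, and 10 of the 11 mature neuron markers rose.

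Between Neurog1-Ctrl and Sox2GBC, where 8.02% of genes were higher in Neurog1-Ctrl, 0 of 4 members passed by limma and 0 had an unadjusted p under 0.05. Taar2 averaged 5.89 ± 0.23 in Neurog1-Ctrl and 5.20 ± 0.20 in Sox2GBC (0.69 ± 0.50, adjusted p = 0.392). For Taar4, Taar5 and Taar6 the differences were 0.24, 0.07 and 0.43. None of the 7 other TAAR genes passed either, and none had an unadjusted p under 0.05. In the same comparison 169 of 580 odorant receptors rose and 3 fell, with a median of 0.70. With median scaling 256 of the receptors rose, and with cyclic loess 119. Taar4 and Taar5 were detected on no array of either group, and Taar2 and Taar6 on 1 Neurog1-Ctrl array each, so differences of these genes could be missed. Taar2 was called higher by limma with the compared groups only (0.69, adjusted p = 0.0261) and with array weights (0.72, adjusted p = 0.0393). Markers of other cells were lower in Neurog1-Ctrl, with 5 of 6 sustentacular, 4 of 5 horizontal basal, 3 of 4 Bowman gland and 4 of 5 microvillar and brush cell markers called. The summed intensity of the 8 immature neuron markers overlapped, at 77290 to 92160 in Sox2GBC and 76820 to 83590 in Neurog1-Ctrl. That of the 6 precursor markers did too (41040 to 50050 and 40430 to 44420). That of 5 globose basal and dividing cell markers was 947.5 to 2156 in Sox2GBC and 2004 to 2505 in Neurog1-Ctrl. The part of these cells in the result was not tested.

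In OMP against Neurog1-Ctrl, where 17.9% of genes were higher in OMP, 3 of the 4 members rose. All 4 differences were larger than those between Neurog1-Ctrl and Sox2GBC, but the gap between the steps was not tested. Taar6 averaged 7.02 ± 0.21 in OMP and 5.57 ± 0.46 in Neurog1-Ctrl (1.45 ± 0.28, adjusted p = 0.000564). For Taar5 the means were 6.39 ± 0.11 in OMP and 5.32 ± 0.35 in Neurog1-Ctrl, at least 1.41-fold apart (1.07 ± 0.22, adjusted p = 0.000801). Its second probe gave 0.98 ± 0.20 (adjusted p = 0.000894). Taar2 passed narrowly (1.35 ± 0.50, adjusted p = 0.0403), and its second probe gave a larger difference of 2.09 ± 0.47 (adjusted p = 0.00222). The call for the brighter Taar2 probe ended without OMP replicate 2 (1.44, adjusted p = 0.0600), without OMP replicate 3 (0.75, adjusted p = 0.240) or without any 1 of the 3 Neurog1-Ctrl arrays (1.28 to 1.48, adjusted p from 0.0582 to 0.101). It also ended without the filter (adjusted p = 0.0715) and with the compared groups only (adjusted p = 0.0603). Taar4 did not pass (0.83 ± 0.34, at least 1.34-fold, adjusted p = 0.0685), but did without OM replicate 1 (adjusted p = 0.0357) or without OMP replicate 1 (1.16, adjusted p = 0.0200). Within the noisiest class OMP has a single array, replicate 2, which exceeded the mean of the 3 Neurog1-Ctrl arrays by 1.18 for Taar2, 0.94 for Taar4, 0.95 for Taar5 and 1.38 for Taar6. In OMP against Neurog1-Ctrl all 8 immature neuron and all 6 precursor markers fell, while 8 of 11 mature neuron and 4 of 5 horizontal basal cell markers rose. Their part in the receptor result was not tested.

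Genes that act with the receptors were read in the same comparison. Of the 15 transduction genes 11 rose in OMP against Neurog1-Ctrl, among them Adcy3, the adenylyl cyclase (2.38 ± 0.27, adjusted p = 2.23e-06), the channel subunit Cnga2 (0.89 ± 0.22, adjusted p = 0.00397) and Gnal, the G protein subunit that TAARs share with odorant receptors (1.12 ± 0.41, adjusted p = 0.0387). Ric8b, which assists Gnal, rose as well (1.13 ± 0.20, adjusted p = 0.000270). Of 13 tested genes of receptor choice and trafficking 2 rose and 3 fell, counts near those of all genes, of which 17.9% rose and 18.2% fell. Reep1 and Rtp2, receptor transport proteins, rose by 2.14 ± 0.20 (adjusted p = 2.43e-07) and 0.89 ± 0.22 (adjusted p = 0.00443). Lower in OMP were Kdm1a, a histone demethylase of receptor choice (-0.86 ± 0.19, adjusted p = 0.00148), the LIM cofactor Ldb1 (-0.81 ± 0.20, adjusted p = 0.00345) and Lhx2, a LIM homeodomain factor (-0.72 ± 0.27, adjusted p = 0.0450). Among the odorant receptors 273 of 580 rose and 33 fell, with a median of 0.77.

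The next question was what removal of the bulb, the target of the sensory axons, did to the receptors. In OMP-OBX against OMP 3 of the 4 members fell, where 4.43% of genes were lower. Taar2 averaged 5.10 ± 0.15 in OMP-OBX and 7.24 ± 1.13 in OMP (-2.14 ± 0.50, adjusted p = 0.00898, at least 2.84-fold lower). The 3 OMP-OBX arrays, all below detection, lay below the 3 OMP arrays. Taar6 averaged 5.01 ± 0.64 in OMP-OBX and 7.02 ± 0.21 in OMP (-2.01 ± 0.28, adjusted p = 0.000128). Taar5 averaged 5.23 ± 0.19 in OMP-OBX and 6.39 ± 0.11 in OMP (-1.16 ± 0.22, adjusted p = 0.00160, at least 1.58-fold lower). Taar4 did not pass (-1.04 ± 0.34, at least 1.50-fold lower by the group means alone, adjusted p = 0.0694), with a 95% interval of -1.76 to -0.32 and arrays that overlapped. It passed without OM replicate 1 (adjusted p = 0.0318) or without OMP replicate 1 (-1.37, adjusted p = 0.0271).

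The Taar2 call ended without OMP replicate 3 (-1.54, adjusted p = 0.0529), while its second probe gave -2.63 ± 0.47 (adjusted p = 0.00150). The second Taar5 probe gave a smaller difference that did not pass (-0.64 ± 0.20, adjusted p = 0.0633). The 3 OMP-OBX arrays shared a noise class with OMP replicate 3 alone. Against that array the differences were -3.35 for Taar2, -1.59 for Taar4, -1.25 for Taar5 and -2.25 for Taar6. It was the highest OMP array for all 4 genes, and of the OMP-OBX readings 1, of Taar6, was detected, so these values do not separate noise from bulbectomy.

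Of the 7 other TAAR genes tested, 5 fell in OMP-OBX. Taar7a fell by 2.05 ± 0.31 (adjusted p = 0.000239, at least 2.22-fold), Taar7e by 1.93 ± 0.28 (adjusted p = 0.000179, at least 2.14-fold) and Taar7d by 1.75 ± 0.17 (adjusted p = 5.19e-06, at least 1.68-fold). Taar7b and Taar7f also fell (-1.59, adjusted p = 0.0197, and -1.08, adjusted p = 0.0107), with Taar7f detected on no OMP-OBX array. Taar8b just missed (-1.25 ± 0.39, at least 1.70-fold lower, adjusted p = 0.0522), and Taar3 differed little (-0.14 ± 0.38, adjusted p = 0.882).

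Odorant receptors were lower in the same arrays, with 241 of 580 called lower, 19 higher and a median difference of -0.89, against -0.01 over all genes. With median scaling 290 were called lower and 5 higher. The members were not ranked among them, since Taar2, Taar4 and Taar5 have only bounds in OMP-OBX. Of the 15 transduction genes 2 fell, Adcy3 (-1.27 ± 0.27, adjusted p = 0.00520) and the channel subunit Cngb1 (-0.83 ± 0.22, adjusted p = 0.0223), and the median of the 15 was -0.49. Gnal differed by -0.53 ± 0.41 (adjusted p = 0.511), and Omp, the mature neuron marker, by -0.07 ± 0.18 (adjusted p = 0.885).

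Other measures of OMP-OBX and OMP were read beside the receptors, and some of them differed. The summed intensity of 8 immature neuron markers was 32320 to 41840 in OMP-OBX and 9577 to 14990 in OMP, and 5 of the 8 rose. That of the mature neuron markers, given above, was lower in OMP-OBX. Among genes of the dorsal zone, where many TAAR neurons lie, Acsm4 fell by 1.21 ± 0.30 (adjusted p = 0.0141), Nqo1 did not pass (-1.37 ± 0.43, adjusted p = 0.0572), and neither did Robo2 (-0.65) or Sema3f (-0.02). The ventral zone genes Ncam2 and Nrp2 had differences of 0.15 and 0.96 (adjusted p = 0.882 and 0.0620). The part of cell maturity or zone in the receptor result was not tested.

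**Figure D3:**
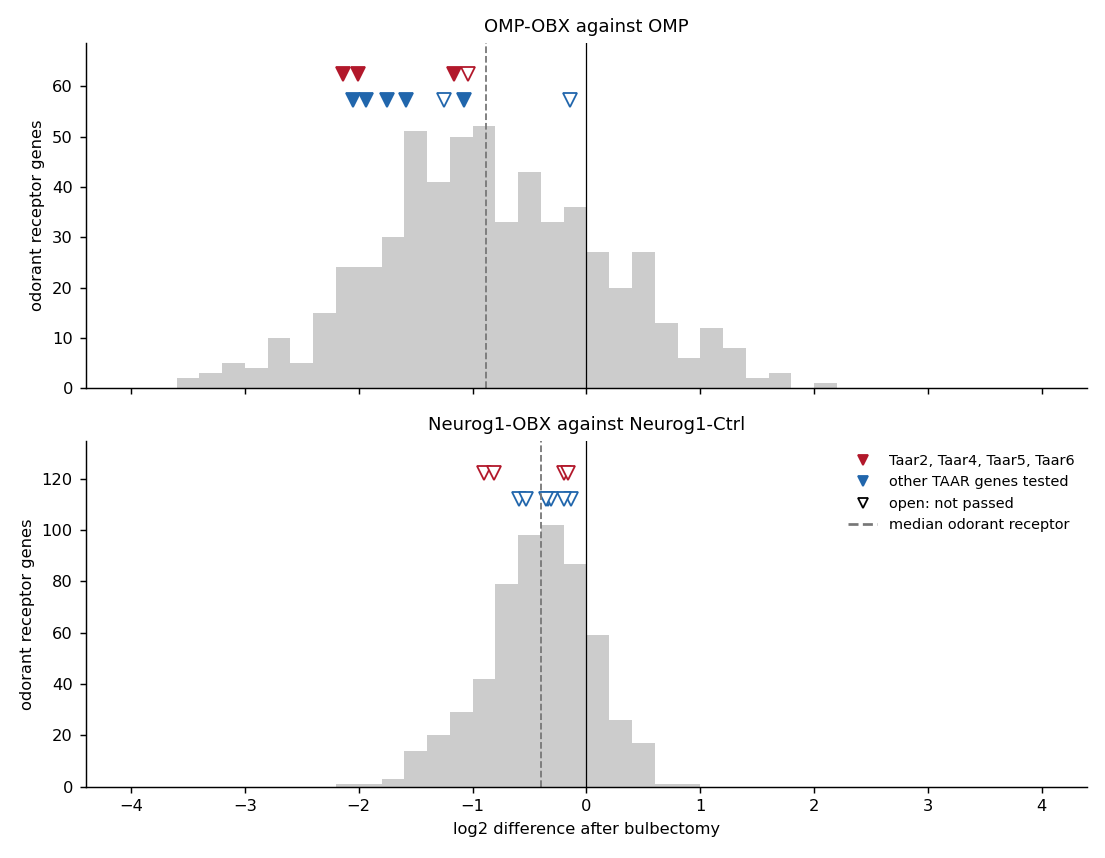
Distribution of the log2 difference after bulbectomy over 580 odorant receptor genes (grey bars, dashed line at the median), with the TAAR genes as triangles above (red for the members, blue for the others, filled where adjusted p was under 0.05). In OMP-OBX against OMP the 4 red triangles lie between -2.14 and -1.04, that of Taar4 open, and the receptor median is -0.89. Their place among the receptors is not a result, since these genes entered the test through detection in OMP and OM. In OMP-OBX, Taar2, Taar4 and Taar5 have only bounds. In Neurog1-OBX against Neurog1-Ctrl all TAAR triangles are open.

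In Neurog1-OBX against Neurog1-Ctrl, where 0.202% of genes were lower, 0 of 4 members passed by limma, and 1 had an unadjusted p under 0.05. That was Taar6, which averaged 4.76 ± 0.15 in Neurog1-OBX and 5.57 ± 0.46 in Neurog1-Ctrl (-0.82 ± 0.28, adjusted p = 0.273). Taar2 averaged 4.99 ± 0.40 in Neurog1-OBX and 5.89 ± 0.23 in Neurog1-Ctrl (-0.90 ± 0.50, adjusted p = 0.563). Differences of Taar4 and Taar5 were -0.20 and -0.16. Taar4 and Taar5 were detected on no array of either group, and Taar2 and Taar6 on 1 Neurog1-Ctrl array each, so a fall could be missed. None of the 7 other TAAR genes passed, with none at an unadjusted p under 0.05, and 12 of 580 odorant receptors fell, with a median of -0.40, against 21 with median scaling and 7 without background correction.

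Whether bulbectomy acted differently in the sorts was tested as the effect in OMP cells minus that in Neurog1 cells, a contrast in which 0.708% of genes were lower. For 0 of 4 members did it pass by limma, and 2 had an unadjusted p under 0.05. They were Taar5 (-1.001 ± 0.31, adjusted p = 0.104) and Taar6 (-1.19 ± 0.40, adjusted p = 0.138). Taar5 passed when OM replicate 1 was left out (adjusted p = 0.0349) and Taar6 when OMP-OBX replicate 3 was left out (-1.56, adjusted p = 0.0403). Among the other TAAR genes Taar7d passed (-1.55 ± 0.25, adjusted p = 0.00457), as did Taar7e (-1.62 ± 0.40, adjusted p = 0.0416). Neither gene was detected on any Neurog1-Ctrl, Neurog1-OBX or OMP-OBX array. A fall in Neurog1 cells could thus not be measured for them, and these calls do not show a difference between the sorts. Taar7d entered the test through its 3 OMP arrays alone. For the members a difference between the sorts was not shown either.

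In OMP-OBX against Neurog1-OBX, where 12.7% of genes were higher in OMP-OBX, 0 of the 4 members passed by limma with their brighter probes and 0 had an unadjusted p under 0.05. Taar2 averaged 5.10 ± 0.15 in OMP-OBX and 4.99 ± 0.40 in Neurog1-OBX, a difference of 0.11 with a 95% interval of -0.93 to 1.15. The differences of the others were -0.01 for Taar4 (-0.74 to 0.71), 0.07 for Taar5 (-0.39 to 0.52) and 0.25 for Taar6 (-0.34 to 0.85). The second Taar5 probe passed (0.56 ± 0.20, adjusted p = 0.0486), and was detected on no array of either group. Of the readings of the brighter probes, 1 was detected, so the intervals concern readings near background. In the same comparison 11 of 15 transduction genes rose, with a median of 1.43, and 125 of 580 odorant receptors rose and 38 fell, with a median of 0.24.

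Sus, named for the sustentacular (supporting) cells, was the sort outside the neuronal lineage. In Sus all 4 members were lower than in OMP, where 30.9% of genes were lower. Taar2 was at least 2.93-fold lower (-2.33 ± 0.50, adjusted p = 0.000456), Taar6 at least 2.51-fold (-2.23 ± 0.28, adjusted p = 1.29e-06), Taar5 at least 1.63-fold (-1.55 ± 0.22, adjusted p = 4.33e-06) and Taar4 at least 1.55-fold (-1.40 ± 0.34, adjusted p = 0.00165). No member probe was detected on any Sus array, although the 11 mature neuron markers were.

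Against OM, the whole mucosa, Sus was again lower for all 4 members, with 25.3% of genes lower. The bounds were at least 2.45-fold for Taar2, 1.35-fold for Taar4, 1.16-fold for Taar5 and 1.51-fold for Taar6 (adjusted p from 0.000232 to 0.00747). Sox2GBC, which detected no member, was lower than OM for Taar2 by at least 1.98-fold (-1.78 ± 0.50, adjusted p = 0.00974) and for Taar6 by at least 1.22-fold (-1.14 ± 0.28, adjusted p = 0.00436), where 16% of genes were lower. Taar5 was called lower as well (-0.65 ± 0.22, adjusted p = 0.0267), with no fold bound above 1. Without OM replicate 2 the Taar2 call ended (adjusted p = 0.0589), as it did without OM replicate 3 (adjusted p = 0.0599). The Taar5 call ended without either of these (adjusted p = 0.114 and 0.123) and without Sox2GBC replicate 2 (adjusted p = 0.0591) or 3 (adjusted p = 0.0977). Taar4 did not pass (-0.86 ± 0.34, at least 1.09-fold lower, adjusted p = 0.0625), but did without OM replicate 1, Sox2GBC replicate 1 or OMP replicate 1 (adjusted p = 0.00786, 0.0249 and 0.0443).

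In Neurog1-Ctrl against OM, where 18.3% of genes were lower, Taar5 alone passed (-0.58 ± 0.22, adjusted p = 0.0439), against readings that Neurog1-Ctrl did not detect, and this rested on single arrays. Without OM replicate 1, the lowest of the OM arrays for these members, all 4 members were called lower in Neurog1-Ctrl, with Taar2 at -1.85 (adjusted p = 0.00187), Taar4 at -1.01 (adjusted p = 0.0272) and Taar6 at -0.93 (adjusted p = 0.0238). Without OM replicate 2 or 3 none was called. The Taar5 call also ended without Neurog1-Ctrl replicate 1 or 2, Sox2GBC replicate 1 or 2, Neurog1-OBX replicate 2 or OMP-OBX replicate 3, and Taar6 was called without Neurog1-Ctrl replicate 1 or OMP-OBX replicate 2 or 3 (adjusted p = 0.0197, 0.0469 and 0.0251). The second Taar2 probe passed (-1.62 ± 0.47, adjusted p = 0.0132). The median difference of the 580 odorant receptors in this comparison was 0.04, and -0.15 with cyclic loess.

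In OMP against OM, where 7.54% of genes were higher, 0 of 4 members passed by limma and 2 had an unadjusted p under 0.05. Taar6 averaged 7.02 ± 0.21 in OMP and 6.29 ± 0.38 in OM (0.73 ± 0.28, adjusted p = 0.0735, or 0.0368 without OMP-OBX replicate 3), and Taar5 6.39 ± 0.11 in OMP and 5.90 ± 0.47 in OM (0.49 ± 0.22, adjusted p = 0.116). Taar2 and Taar4 differed by 0.26 and 0.20, within the spread of the arrays. Of the other TAAR genes Taar7d (1.24 ± 0.17, adjusted p = 8.02e-05) and Taar7e (1.08 ± 0.28, adjusted p = 0.0111) rose in OMP. Taar7d was detected on no OM array and entered the test through its 3 OMP arrays alone. Taar7e entered through 3 OMP and 2 OM arrays. Their being high in OMP is thus in part a condition of entry. The median odorant receptor differed by 0.81, with 207 of 580 called higher and 3 lower.

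**Figure D4:**
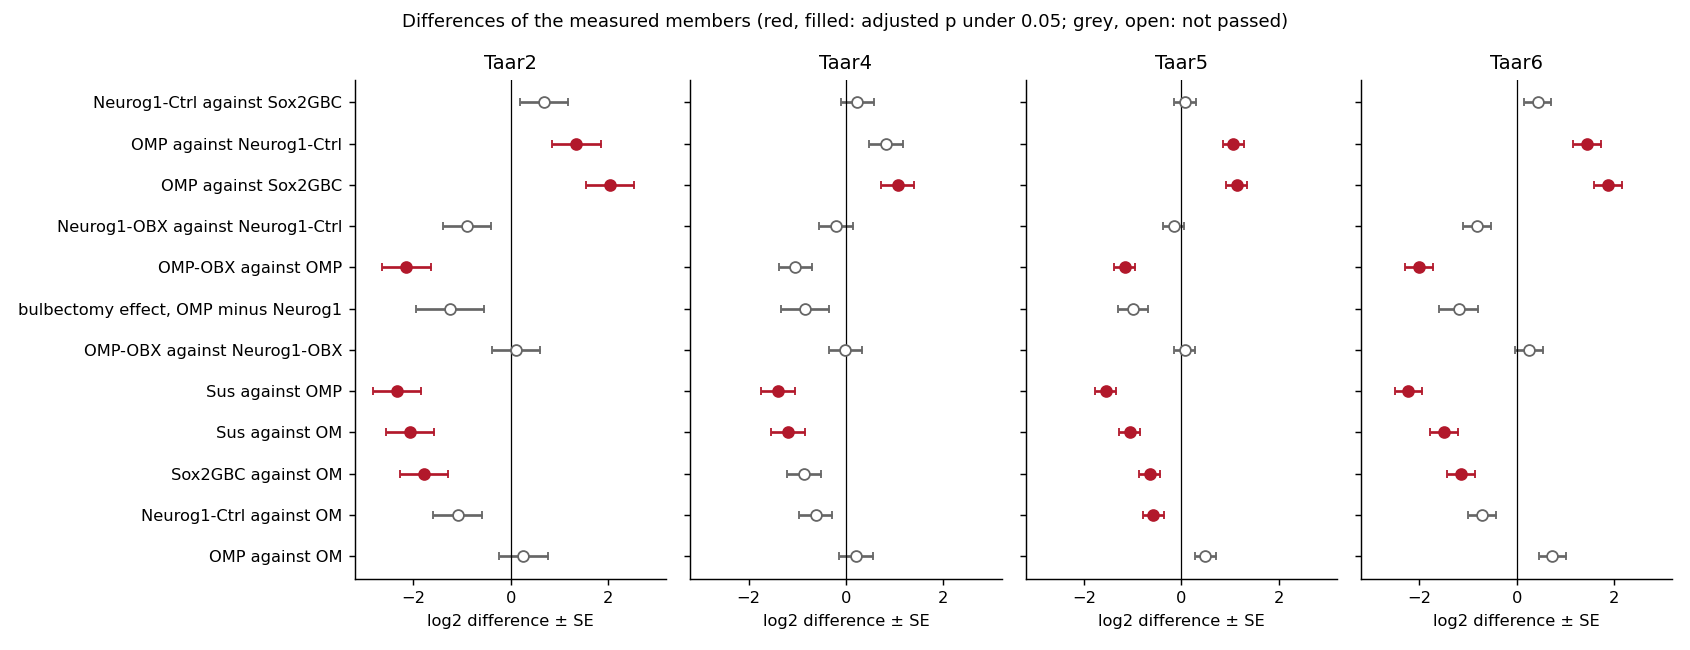
Log2 difference with its SE (n = 3 arrays per group) of Taar2, Taar4, Taar5 and Taar6 in the 12 comparisons, 1 panel per gene, red and filled where adjusted p was under 0.05. The positive called values lie in OMP against Neurog1-Ctrl and OMP against Sox2GBC, and the negative ones in OMP-OBX against OMP and in the comparisons of Sus, Sox2GBC and Neurog1-Ctrl with OMP or OM.

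The first places in the order of the group means were shared by the 4 tested members. OMP was highest and OM next for Taar2, Taar4, Taar5 and Taar6, and no difference between these neighbours passed. Neurog1-Ctrl followed for all 4. The order of the other groups differed between genes. The remaining means of Taar2, for Sox2GBC, OMP-OBX, Neurog1-OBX and Sus, lay between 4.91 and 5.20, those of Taar4 between 4.93 and 5.30, those of Taar5 between 4.84 and 5.25 and those of Taar6 between 4.76 and 5.14. Neighbours among these 4 groups overlapped in their arrays, except that the 3 Sus arrays lay below the 3 Neurog1-OBX arrays for Taar5.

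Genes whose pattern over the 21 arrays was most like that of each member were ranked by Pearson's r. The points share arrays, noise and 7 groups, so r is a description. For Taar6 the first was Taar7a (0.956), followed by Olfr652 and Olfr1466 (both 0.927). For Taar5 it was Taar7a (0.931), then Olfr424 (0.928) and Olfr1461 (0.924). For Taar2 the nearest were Olfr552 (0.943), Olfr1056 (0.932) and Olfr609 (0.930). For Taar4 they were Olfr1466 (0.887), Olfr1339 (0.881) and the glycolytic enzyme gene Pgam1 (0.874). Among the 100 nearest genes of each, odorant receptors numbered 84 for Taar2, 72 for Taar4, 78 for Taar5 and 66 for Taar6, whereas odorant receptors were 4.89% of the genes tested.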

How the data were processed

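Per the submitters' processing notes, GenomeStudio made the deposited values: for each probe and array an intensity, not normalized and in places negative, and a detection p-value. The deposited series matrix holds the authors' processed intensity values and served as an alternative. They are on a linear scale, with their normalization not given in the sources used here. The OMP column numbered 4 is OMP replicate 3, by the sample's title and description. All columns found their sample. Sequences of the other TAAR genes are not reported here.

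Gene names come from the platform annotation. In limma 3.58.1 (R 4.3.3), normexp correction used background estimates inferred from detection p-values, with an offset of 16, followed by quantile normalization of the 21 mucosal arrays and log2. The brightest probe among those detected on 3 or more arrays stood for its gene, and TAAR probes were also fitted one by one, with adjustment over 21711 probes. The fit held 7 groups and 12 contrasts, with 14 residual degrees of freedom and 19.01 after moderation. It was tested on simulated data. P-values measure the spread between pooled samples. Probe levels were not compared between genes.

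The 3 most similar genes per member were named, with the members and fixed lists. The members and lists were chosen with earlier results of these data known. Same-numbered samples deviated together in every pair only for OMP against OM (correlations of 0.532, 0.105 and 0.248), and the block changed no member call there. Arrays were put in 4 noise classes by the SD of their negative controls. Alternatives covered background correction, normalization, filter, probe rule, samples in the fit, array weights, replicate number and noise class as blocks, detection at 0.05, and each array left out.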

Additional observations from a re-analysis of the deposited data

Results flagged for a closer look

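Taar3 was the TAAR gene with a probe detected outside the mucosa. Its brighter probe, ILMN_2846059, was detected on 3 of 3 arrays of the reference RNA of cell lines, mREF, which no comparison used, and on 16 of 21 mucosal arrays. No other of the 22 TAAR probes was detected on an mREF array, and the second Taar3 probe was detected on 2 of 21 mucosal arrays. The brighter probe was called in none of the 12 comparisons. What the probe bound was not tested.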

How the results depend on the processing

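Of the 48 differences of Taar2, Taar4, Taar5 and Taar6, 22 were called. Over the alternatives, called differences kept their call in 703 values and lost it in 36, and none changed direction. Their sizes moved by over 1.5 times in 46 of 739 values: in 22 of 22 with the authors' processed values, 21 of 22 without background correction, 2 of 13 with the other probe and 1, Taar2 in OMP against Neurog1-Ctrl, without OMP replicate 3. Differences that were not called stayed so in 825 values and were called in 44, and 26 of these 869 values changed sign. In Neurog1-Ctrl against Sox2GBC the count of called members went to 1, Taar2, with the compared groups only and with array weights. In the contrast of the bulbectomy effects it was 1 with cyclic loess and 0 to 1 leaving out 1 array. In Sox2GBC against OM it was 1 with the compared groups only and 1 to 4 leaving out 1 array. In Neurog1-Ctrl against OM, where 1 was called, it was 0 without background correction, with the authors' processed values, without the filter, with the compared groups only and with the replicate block, 2 with median scaling and with the mean of all probes, 4 with cyclic loess, array weights and the noise class as a block, and 0 to 4 leaving out 1 array. In OMP against OM it was 0 to 1 leaving out 1 array. The cause was not tested. The replicate block ended the Taar5 call in Neurog1-Ctrl against OM (-0.58, adjusted p = 0.0511), where same-numbered samples did not pair. It changed no other count of called members.

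Among the values named above, Taar4 in OMP-OBX against OMP was called with median scaling (-1.18, adjusted p = 0.0250), with the noise class as a block (-1.46, adjusted p = 0.0108), with cyclic loess, with array weights, and without OM or OMP replicate 1. The noise block moved Taar2 to -3.11 (adjusted p = 0.000375), and median scaling, which moved the median of all genes to -0.19, left Taar2, Taar5 and Taar6 called. At a detection p under 0.05 the detected arrays went to 11 of 21 for Taar4 and 4 for its second probe, 7 for the second Taar5 probe and 5 for the brighter Taar9 probe.

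Counts over all genes moved most with array weights, from 47 to 592 in Neurog1-OBX against Neurog1-Ctrl, from 235 to 806 in the contrast of the bulbectomy effects, from 2031 to 4193 in Neurog1-Ctrl against Sox2GBC and from 4366 to 6699 in Neurog1-Ctrl against OM. With the compared groups only they were 182, 371 and, in OMP against OM (2430), 971. In Neurog1-OBX against Neurog1-Ctrl they were 31 without background correction and 98 with the noise block, and 8 to 95 leaving out 1 array. Median scaling gave 669 genes in OMP-OBX against OMP (1029 otherwise), 114 in the contrast, 1757 in OMP-OBX against Neurog1-OBX (2965 otherwise) and 1477 in OMP against OM. The share of called genes that were higher shifted with median scaling, to 77% from 46.9% in Neurog1-Ctrl against Sox2GBC, 70.6% from 48.4% in OMP against Sox2GBC, 34.7% from 48.9% in Neurog1-OBX against Neurog1-Ctrl, 22.9% from 48.9% in OMP-OBX against OMP, 44.7% from 64.3% in the contrast, 34.4% from 48% in Sus against OM, 22.4% from 51.4% in Sox2GBC against OM and 24.4% from 36.8% in OMP against OM. With cyclic loess it was 35.4%, 60.4% (49.7% otherwise in OMP against Neurog1-Ctrl), 48.2% in the contrast and 35.5% (50.3% otherwise in Neurog1-Ctrl against OM). Among the odorant receptors, cyclic loess gave 71 lower in the contrast (40 otherwise) and 92 lower and 55 higher in Neurog1-Ctrl against OM (56 and 72 otherwise). Most member values outside OMP and OM lie at the detection limit, so small differences there could be missed.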
